A study of Homo sapiens with 28 samples.

Results

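The genes described here are 30 genes of sterol synthesis and cholesterol handling, out of 61815 human genes in the table of counts. They were taken by gene symbol from a list written for the pathway. That rule uses no measured value, but the list was chosen with earlier results of these data known. All 30 were found, with at least 10 counts in every library, and all 30 were tested in both experiments. They comprise 19 enzymes of cholesterol synthesis, 5 regulators (the transcription factor genes SREBF1 and SREBF2 and the sterol sensors that control their products), 3 proteins that move cholesterol inside the cell, and 3 target genes of the oxysterol receptor LXR.

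The 28 libraries hold RNA of LNCaP, a line of human prostate cancer cells that respond to androgen, of wild-type genotype per the labels. All cells had first been held for 72 h in medium whose serum had been stripped of steroid hormones with charcoal, so the vehicle groups are androgen-deprived cells. In the first experiment, cells received 0.1% DMSO (vehicle), 1 µM Senexin B, 0.1 nM R1881, or Senexin B plus R1881 for 24 h, with 3 libraries per group. In the second, they received 0.1% DMSO, 500 nM SNX631, 1 nM R1881, or SNX631 plus R1881 for 72 h, with 4 libraries per group. R1881 is a synthetic androgen that binds the androgen receptor. Senexin B and SNX631 block CDK8 and CDK19, closely related kinases that act on transcription as part of the Mediator complex. Doses are given as labelled, and for Senexin B the study's own text names another dose. Time, R1881 dose, inhibitor and experiment changed together between the experiments and cannot be told apart. The paper states at least 3 biological replicates per treatment condition, and the labels do not say whether these were separate cultures. The p values therefore measure only the spread between these libraries, and how much of it is technical is not known.

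Cells make cholesterol from acetyl-CoA through the mevalonate pathway, which yields farnesyl diphosphate, then through squalene to lanosterol, and from lanosterol through a series of reductions, demethylations and isomerizations to cholesterol. SREBP2, the product of SREBF2, is the main activator of these genes. It is carried from the endoplasmic reticulum to the Golgi by SCAP when sterols are low and is held back by the INSIG proteins when sterols are high. LXR is activated by oxysterols and turns on genes that export cholesterol or limit its uptake, such as ABCA1, ABCG1 and MYLIP. Lipid synthesis is a well-known target of androgens in prostate cells.

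Total counts per library ranged from 9846595 to 33809419, and the highest belonged to a 24 h vehicle library, with 15248512 the next highest. The common biological coefficient of variation was 2.72% at 24 h and 2.38% at 72 h. KLK3, which encodes prostate-specific antigen, rose with R1881 by 6.15 and 6.57 on the log2 scale at 24 h and 72 h. KLK2 rose by 7.47 and 7.45, CDK8 fell by 1.07 and 0.97, and CDK19 changed by 0.46 and 0.36, under the fold limit. Summed prostate luminal markers lay between 2720 and 3770 CPM (counts scaled to the size of the library) in every library, summed basal, immune and endothelial markers at up to 4.56 CPM, and stromal markers at 7.36 to 31.5 CPM, with COL1A2 and DCN at 3 counts or fewer. KRT5, TP63, PTPRC, PECAM1 and CHGA had 3 counts or fewer in every library. COL1A1, which made up nearly all of the stromal sum, was called lower in all 4 inhibitor comparisons, at log2 fold changes from -1.05 to -0.615, and with R1881 at 24 h without and at 72 h with inhibitor, at -0.669 and -0.703 (edgeR FDR up to 1.07e-07). VWF, the endothelial marker with counts, was called higher in all 4 comparisons of R1881, at 1.32 to 2.04 (edgeR FDR up to 0.000433), with group means from 0.611 to 4.06 CPM. Among the luminal markers FOLH1 was called lower in the same 4, at -0.949 to -0.856, and KRT8 and KRT18 higher in both at 72 h, at 0.753 to 0.86. In the presence of R1881, KLK3 was called lower with inhibitor in both experiments, at -1.92 and -1.59. Its group means went from 110 to 29.1 CPM at 24 h and from 138 to 46.2 CPM at 72 h. The part of these markers in the values of the 30 genes was not tested. In bulk RNA, fewer cells of a kind and less RNA per cell cannot be told apart.

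The first comparison asked how androgen changed these genes without inhibitor. Most synthesis enzymes were higher with R1881, while ABCA1, ABCG1, INSIG2 and the sterol reductase gene TM7SF2 were lower. Calls required an FDR (false discovery rate, Benjamini-Hochberg over all genes tested) under 0.01 in the quasi-likelihood test of edgeR and a fold change over 1.5. The error given after a log2 fold change is its SE from that fit. At 24 h, 13 of the 30 genes were called higher, 4 lower and 13 were not called, beside 19% of all 15948 genes tested (9.81% higher and 9.19% lower). At 72 h, 14 were called higher, 4 lower and 12 were not called, beside 19.8% of 16074 genes (9.7% higher and 10.1% lower). The median log2 fold change of the 30 genes was 0.54 in both experiments, against -0.016 and -0.014 over all genes tested. R1881 and vehicle libraries did not overlap in 28 of the 30 genes in either experiment, beside 62.1% of all genes at 24 h and 55% at 72 h. The calls among the 19 enzymes were 10 higher with 1 lower at 24 h, and 11 higher with 1 lower at 72 h.

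The same direction was called in both experiments for 16 genes, and the matching share of all genes was not computed. ACAT2, HMGCS1, MVK, IDI1, FDPS, FDFT1, SQLE, LSS, EBP, SC5D, INSIG1 and NPC1 were higher, and TM7SF2, INSIG2, ABCA1 and ABCG1 were lower. SREBF2 was called higher at 24 h, and NSDHL and SCAP at 72 h. The remaining 11, PMVK, MVD, CYP51A1, LBR, MSMO1, HSD17B7, DHCR7, SREBF1, STARD4, NPC2 and MYLIP, were not called for R1881 without inhibitor in either experiment.

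**Figure D1:**
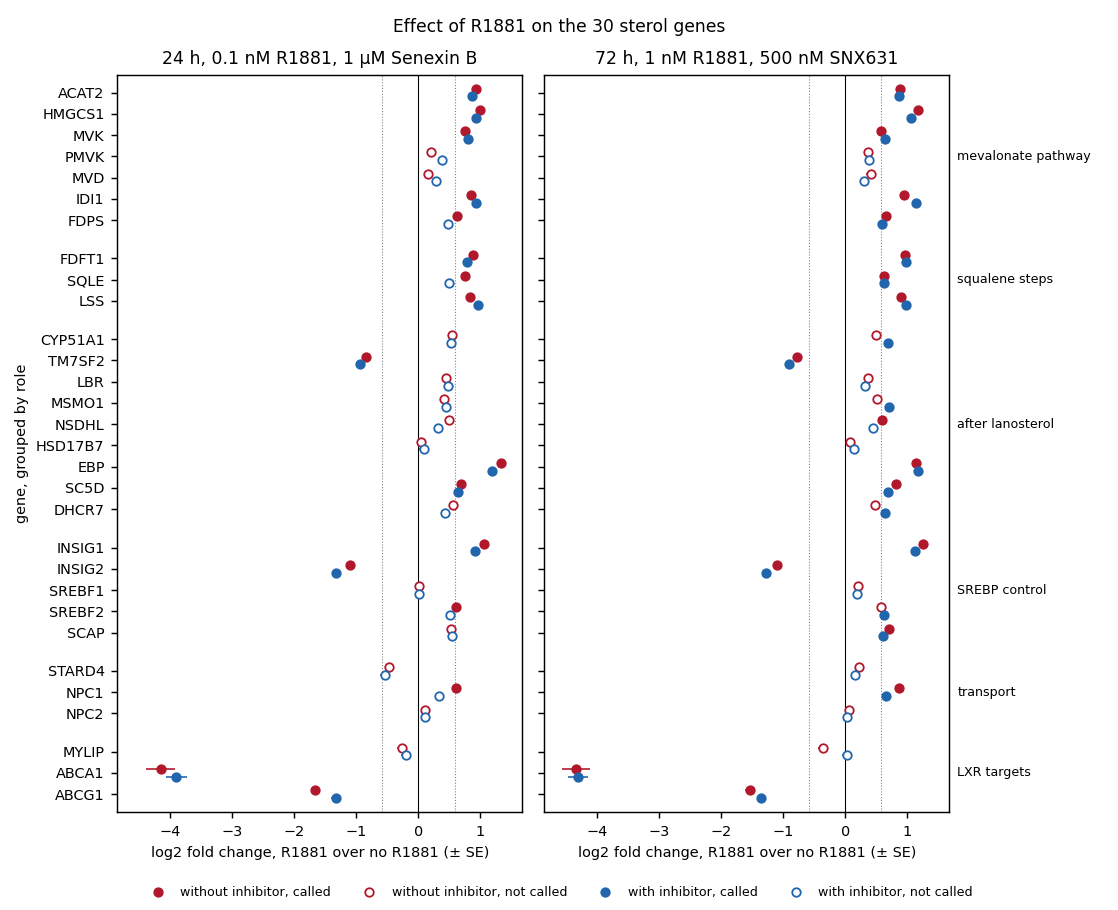
The log2 fold change of R1881 over the matched group without R1881 is plotted for the 30 genes, with its SE, for the 24 h experiment on the left and the 72 h experiment on the right. Red points are cells without inhibitor and blue points cells with inhibitor, filled points were called and dotted lines mark a fold change of 1.5 in either direction. ABCA1 lies far to the left of all other genes in both panels, at -4.15 and -4.34 without inhibitor, and the synthesis enzymes other than TM7SF2 lie to the right of 0.

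The mevalonate pathway holds 7 of the genes, and 5 of them were called higher in each experiment, with a median log2 fold change of 0.76 at 24 h and 0.67 at 72 h. HMGCS1 (ENSG00000112972.15, chromosome 5, 43289395 to 43313512, GRCh38) encodes the synthase that makes HMG-CoA. At 24 h it measured 115, 115 and 118 CPM with vehicle and 237, 230 and 228 CPM with R1881. In the 72 h experiment it measured 109, 111, 107 and 107 CPM with vehicle and 249, 241, 244 and 248 CPM with R1881. Every R1881 library therefore held more than any vehicle library, by log2 fold changes of 0.99 ± 0.034 and 1.18 ± 0.029 (edgeR FDR 4.35e-22 and 9.12e-30).

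IDI1 (ENSG00000067064.13, chromosome 10, 1039152 to 1049170) encodes the isomerase that interconverts the isoprenoid building blocks. Its levels with vehicle were 76, 72.8 and 75.4 CPM at 24 h and 65, 66.3, 62.1 and 63.6 CPM at 72 h. With R1881 they were 142, 132 and 132 CPM at 24 h and 131, 121, 127 and 120 CPM at 72 h. The groups were well apart, with log2 fold changes of 0.85 ± 0.040 and 0.96 ± 0.040 (edgeR FDR 1.49e-18 and 2.12e-22). ACAT2 (ENSG00000120437.9, chromosome 6, 159760328 to 159779055) encodes the cytosolic thiolase that joins acetyl-CoA units. It went from 42, 43.1 and 43.6 CPM with vehicle to 82.1, 84.5 and 80.7 CPM with R1881 at 24 h. In the 72 h experiment it went from 43.7, 47, 50.4 and 47.1 CPM to 90.8, 85, 85.8 and 85 CPM. The lowest R1881 library lay well above the highest vehicle library in both, with log2 fold changes of 0.94 ± 0.045 and 0.88 ± 0.045 (edgeR FDR 4.18e-18 and 1.2e-19). Exons of 3 genes on the opposite strand, among them TCP1 and SOD2, overlap ACAT2, and the use of strand in counting is not given in the sources used here.

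FDPS (ENSG00000160752.15, chromosome 1, 155308748 to 155320666) encodes farnesyl diphosphate synthase, at the end of the mevalonate pathway. Vehicle libraries held 89.4, 87.1 and 85.1 CPM at 24 h and 77.3, 88, 82.3 and 82.4 CPM at 72 h. R1881 libraries held 133, 138 and 129 CPM at 24 h and 131, 131, 128 and 133 CPM at 72 h. These are rises of 0.62 ± 0.038 and 0.67 ± 0.037 on the log2 scale (edgeR FDR 1.75e-15 and 2.74e-18), just past the fold limit. MVK (ENSG00000110921.14, chromosome 12, 109573255 to 109598117) encodes mevalonate kinase. With vehicle it measured 17.5, 17.8 and 18.2 CPM at 24 h and 17.5, 17, 17 and 16.6 CPM at 72 h. With R1881 it measured 29.7, 31.6 and 29.7 CPM at 24 h and 25.7, 26.4, 24.3 and 25.7 CPM at 72 h. The groups did not overlap, with log2 fold changes of 0.76 ± 0.066 and 0.58 ± 0.070 (edgeR FDR 1.49e-11 and 2.58e-09), but the second lay at the fold limit and lost its call in 17 of 26 alternatives. PMVK and MVD, the kinase and decarboxylase that follow MVK, had log2 fold changes of 0.21 and 0.15 at 24 h and of 0.37 and 0.41 at 72 h.

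The squalene steps are the part of the pathway that commits isoprenoids to sterols, and all 3 of their genes were called higher in both experiments. FDFT1 (ENSG00000079459.13, chromosome 8, 11795573 to 11839309) encodes squalene synthase. It measured 189, 190 and 193 CPM with vehicle and 352, 361 and 348 CPM with R1881 at 24 h. The 72 h libraries gave 186, 194, 196 and 187 CPM with vehicle and 392, 357, 369 and 372 CPM with R1881. The gap was many times the spread within a group, at 0.89 ± 0.031 and 0.97 ± 0.029 on the log2 scale (edgeR FDR 8.46e-22 and 5.47e-27). LSS (ENSG00000160285.15, chromosome 21, 46188141 to 46228824) encodes lanosterol synthase, which closes the sterol rings. LSS held 94.7, 94.6 and 95.8 CPM with vehicle at 24 h, against 172, 167 and 170 CPM with R1881. The 72 h values were 75.9, 72.5, 72 and 72.8 CPM with vehicle, against 137, 139, 133 and 139 CPM. Its log2 fold changes were 0.83 ± 0.036 and 0.90 ± 0.036 (edgeR FDR 1.86e-19 and 3.14e-23).

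SQLE (ENSG00000104549.12, chromosome 8, 124998497 to 125022283) encodes squalene epoxidase, a rate-limiting oxygenase of the pathway. Vehicle libraries gave 51.5, 50.5 and 53.8 CPM at 24 h and 54, 51.4, 47.3 and 47.4 CPM at 72 h. R1881 libraries gave 91.5, 89.5 and 84.8 CPM at 24 h and 82.3, 75.8, 76 and 76.3 CPM at 72 h. All R1881 values lay above all vehicle values, with log2 fold changes of 0.76 ± 0.046 and 0.63 ± 0.046 (edgeR FDR 1.4e-15 and 7.69e-15).

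The 9 genes that act after lanosterol, or on it, were less uniform. EBP and SC5D were called higher in both experiments, TM7SF2 was called lower in both, NSDHL was called higher at 72 h, and CYP51A1, LBR, MSMO1, HSD17B7 and DHCR7 were not called. EBP (ENSG00000147155.11, chromosome X, 48521158 to 48528716) encodes the sterol isomerase that shifts a ring double bond. It measured 19.1, 18.7 and 18 CPM with vehicle and 44.5, 49.1 and 45.1 CPM with R1881 at 24 h. At 72 h it measured 17.8, 19.7, 19 and 19.7 CPM with vehicle and 40.9, 38.6, 43.3 and 46.6 CPM with R1881. The fold changes of 2.51 and 2.22 (log2 1.33 ± 0.060 and 1.15 ± 0.067, edgeR FDR 4.57e-19 and 4.83e-18) were the highest of the 19 enzymes at 24 h and the next highest after HMGCS1 at 72 h. SC5D (ENSG00000109929.10, chromosome 11, 121292453 to 121308694) encodes the desaturase that acts after EBP. Its vehicle libraries held 83.1, 76.8 and 80.9 CPM at 24 h and 84.3, 74.8, 81 and 80.5 CPM at 72 h. Its R1881 libraries held 130, 128 and 131 CPM at 24 h and 141, 140, 142 and 142 CPM at 72 h. The rise was 0.69 ± 0.039 and 0.82 ± 0.035 on the log2 scale (edgeR FDR 2.52e-16 and 4.42e-22).

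TM7SF2 and LBR both encode a sterol reductase that removes the ring double bond left by CYP51A1, and LBR is also a receptor of the inner nuclear membrane. TM7SF2 (ENSG00000149809.17, chromosome 11, 65111845 to 65116384) measured 288, 280 and 290 CPM with vehicle and 162, 158 and 160 CPM with R1881 at 24 h. The corresponding 72 h libraries measured 230, 231, 217 and 217 CPM with vehicle and 128, 135, 127 and 132 CPM with R1881. Every R1881 library thus lay below every vehicle library, by log2 fold changes of -0.84 ± 0.037 and -0.78 ± 0.031 (edgeR FDR 2.93e-19 and 4.16e-23). The gene VPS51 overlaps an exon of TM7SF2 on the same strand, and 13 of the TM7SF2 values carried a fraction of a count. LBR went the other way without reaching the fold limit. Its vehicle means were 29.8 ± 0.71 CPM (SD, n = 3) at 24 h and 46.4 ± 2.12 CPM (SD, n = 4) at 72 h, its R1881 means 41.1 ± 1.82 and 59.7 ± 3.02 CPM, and its rises 0.46 and 0.36 on the log2 scale (edgeR FDR 1.36e-08 and 1.88e-08).

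Several enzymes lay close under the limit. CYP51A1, the lanosterol demethylase, had log2 fold changes of 0.55 and 0.49, DHCR7, a final reductase of the pathway, of 0.56 and 0.48, and MSMO1, a methyl sterol oxidase, of 0.42 and 0.51, all past the FDR limit (edgeR FDR from 3.44e-15 to 3.63e-09). NSDHL, which acts with MSMO1 to remove methyl groups, had a fold change of 1.41 at 24 h and 1.51 at 72 h, and its call at 72 h was lost in 7 of 26 alternatives. HSD17B7, the ketosteroid reductase of the same step, had values of 0.045 and 0.077 (edgeR FDR 0.582 and 0.306) whose sign turned when library totals alone set the scale.

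**Figure D2:**
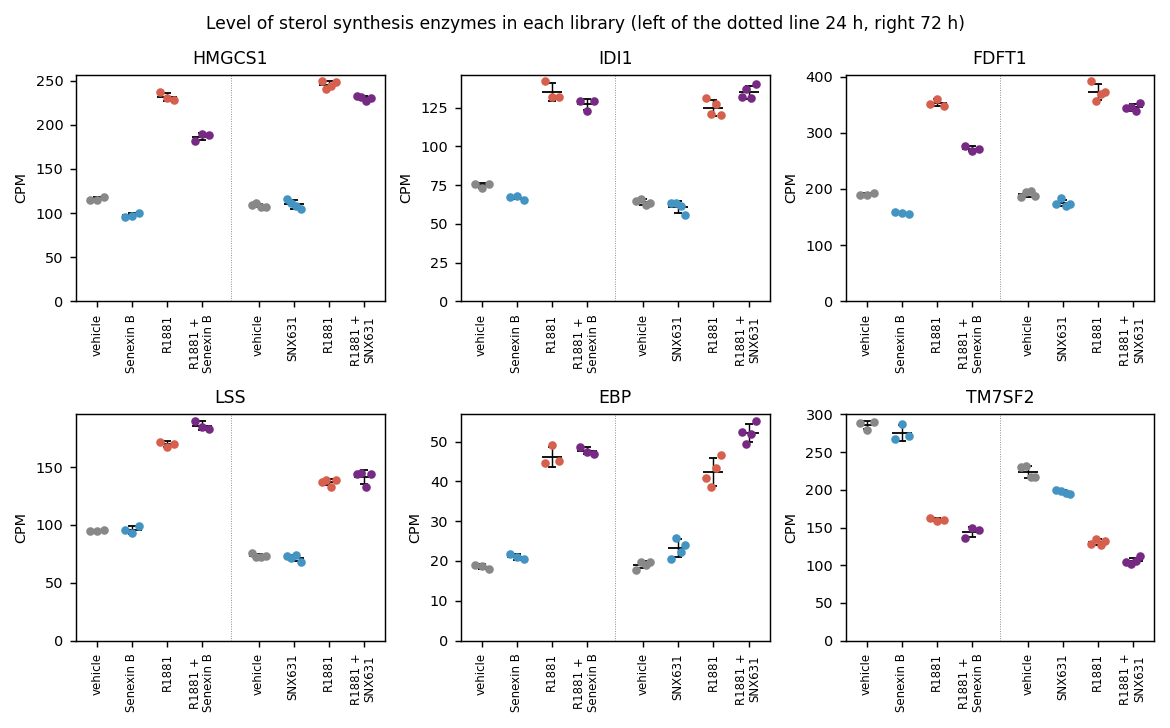
The level of 6 synthesis enzymes is plotted in CPM for each library, with the 24 h groups left of the dotted line and the 72 h groups right of it, and bars give the mean and SD. HMGCS1, IDI1, FDFT1, LSS and EBP were higher in every R1881 library, with or without inhibitor, than in every library without R1881 of the same experiment, and TM7SF2 was lower.

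The genes that control SREBP moved unequally. INSIG1 and INSIG2 encode related membrane proteins that retain SCAP in the endoplasmic reticulum, and R1881 raised the first and lowered the second. INSIG1 (ENSG00000186480.13, chromosome 7, 155297776 to 155310235) measured 65.3, 61.6 and 67 CPM with vehicle and 130, 137 and 140 CPM with R1881 at 24 h. After 72 h, INSIG1 measured 53.6, 53.8, 53.4 and 54.9 CPM with vehicle and 130, 124, 129 and 132 CPM with R1881. The R1881 libraries stood far above the vehicle libraries, by log2 fold changes of 1.06 ± 0.042 and 1.26 ± 0.044 (edgeR FDR 2.44e-20 and 6.32e-25). INSIG2 (ENSG00000125629.16, chromosome 2, 118088452 to 118110997) measured 49.2, 49.4 and 47.4 CPM with vehicle and 22.1, 23.1 and 22.2 CPM with R1881 at 24 h. INSIG2 at 72 h measured 48.7, 46.3, 43.9 and 46.8 CPM with vehicle and 23, 20.4, 23.6 and 20.4 CPM with R1881. It was 2.15-fold and 2.13-fold lower with R1881 (log2 -1.10 ± 0.061 and -1.09 ± 0.056, edgeR FDR 5.93e-17 and 5.8e-20).

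SREBF2 itself averaged 275 ± 7.15 CPM with vehicle and 418 ± 1.2 with R1881 in the 3 libraries each at 24 h, and 244 ± 3.84 and 363 ± 5.44 in the 4 each at 72 h (SD). The ratios of 1.52 and 1.49 fell on either side of the limit (edgeR FDR 2.89e-17 and 3.71e-22). SCAP, the SREBP escort, had log2 fold changes of 0.53 ± 0.041 at 24 h, under the limit, and 0.71 ± 0.032 at 72 h, where it was called (edgeR FDR 6.22e-13 and 1.65e-21). SREBF1, which encodes the SREBP of fatty acid synthesis, held 302 ± 15.3 and 305 ± 7.92 CPM with vehicle and R1881 at 24 h (SD, n = 3), and 217 ± 4.82 and 251 ± 11 CPM at 72 h (SD, n = 4). On the log2 scale its difference was 0.016 (edgeR FDR 0.749) and 0.21 (edgeR FDR 1.4e-06), and at 24 h its sign turned when library totals alone set the scale.

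Among the transport genes, NPC1 was called higher in both experiments. NPC1 and NPC2 encode the lysosomal proteins that hand cholesterol out of lysosomes. NPC1 (ENSG00000141458.13, chromosome 18, 23506184 to 23586898) held 70.5, 66.8 and 70.4 CPM with vehicle and 110, 101 and 107 CPM with R1881 at 24 h. In the 72 h libraries it held 70.8, 68.3, 73.2 and 73.6 CPM with vehicle and 129, 125, 132 and 137 CPM with R1881. No R1881 library reached down to the vehicle range, and the log2 fold changes were 0.61 ± 0.043 and 0.87 ± 0.037 (edgeR FDR 6.37e-14 and 4.2e-22). NPC2 had log2 fold changes of 0.11 and 0.066 (edgeR FDR 0.111 and 0.279), and the second turned to -0.036 with library totals alone.

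STARD4, a soluble sterol carrier, was not called for R1881 in either experiment. It held 45.9, 40.9 and 46.3 CPM with vehicle and 33.2, 32.4 and 31.5 CPM with R1881 at 24 h, so that it changed by -0.46 ± 0.068 on the log2 scale (edgeR FDR 4.92e-07). Its 72 h libraries held 39.2, 33.9, 36.7 and 35.5 CPM with vehicle and 43.4, 42.5, 42.9 and 40.4 CPM with R1881, a log2 fold change of 0.22 ± 0.065 (edgeR FDR 0.00364). The R1881 libraries therefore lay below the vehicle libraries at 24 h and above them at 72 h. In a fit of all 28 libraries, its R1881 effect at 72 h exceeded that at 24 h by 0.69 ± 0.102 on the log2 scale without inhibitor (edgeR FDR 1.63e-06) and by 0.71 ± 0.109 with inhibitor (edgeR FDR 2.88e-06). It was the 1 gene of the 30 called for this difference, beside 1.88% of 16672 genes without inhibitor and 2.22% with it. An antisense gene, STARD4-AS1, overlaps it on the opposite strand.

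Of the 3 LXR targets, ABCA1 and ABCG1 were called lower in both experiments and MYLIP in neither. ABCA1 and ABCG1 encode transporters that pass cholesterol to lipoproteins outside the cell, and MYLIP encodes a ubiquitin ligase that degrades lipoprotein receptors. ABCA1 (ENSG00000165029.17, chromosome 9, 104781002 to 104928237) measured 15.8, 17.8 and 16 CPM with vehicle and 1.01, 0.882 and 0.864 CPM with R1881 at 24 h. In the 72 h libraries it measured 19.6, 21.9, 19.5 and 21.8 CPM with vehicle and 1.05, 1.16, 0.98 and 0.878 CPM with R1881. It was 17.8-fold lower at 24 h and 20.2-fold lower at 72 h (log2 -4.15 ± 0.24 and -4.34 ± 0.22, edgeR FDR 2.61e-21 and 1.06e-25), which was the greatest change of the 30 genes in either experiment. The R1881 libraries held only 10 to 14 counts of ABCA1 each, against 168 to 564 in the vehicle libraries, so its SE was the widest of the 30.

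ABCG1 (ENSG00000160179.19, chromosome 21, 42199689 to 42297244) held 64.2, 58.1 and 64 CPM with vehicle and 20.4, 19.9 and 18.6 CPM with R1881 at 24 h. At 72 h it held 54.4, 51.7, 56 and 56.9 CPM with vehicle and 18.2, 17.1, 20 and 20 CPM with R1881. It was thus 3.17-fold and 2.91-fold lower (log2 -1.67 ± 0.069 and -1.54 ± 0.067, edgeR FDR 1.06e-20 and 1.88e-22). MYLIP had log2 fold changes of -0.27 ± 0.080 and -0.36 ± 0.078, past the FDR limit and under the fold limit (edgeR FDR 0.0047 and 0.000129).

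**Figure D3:**
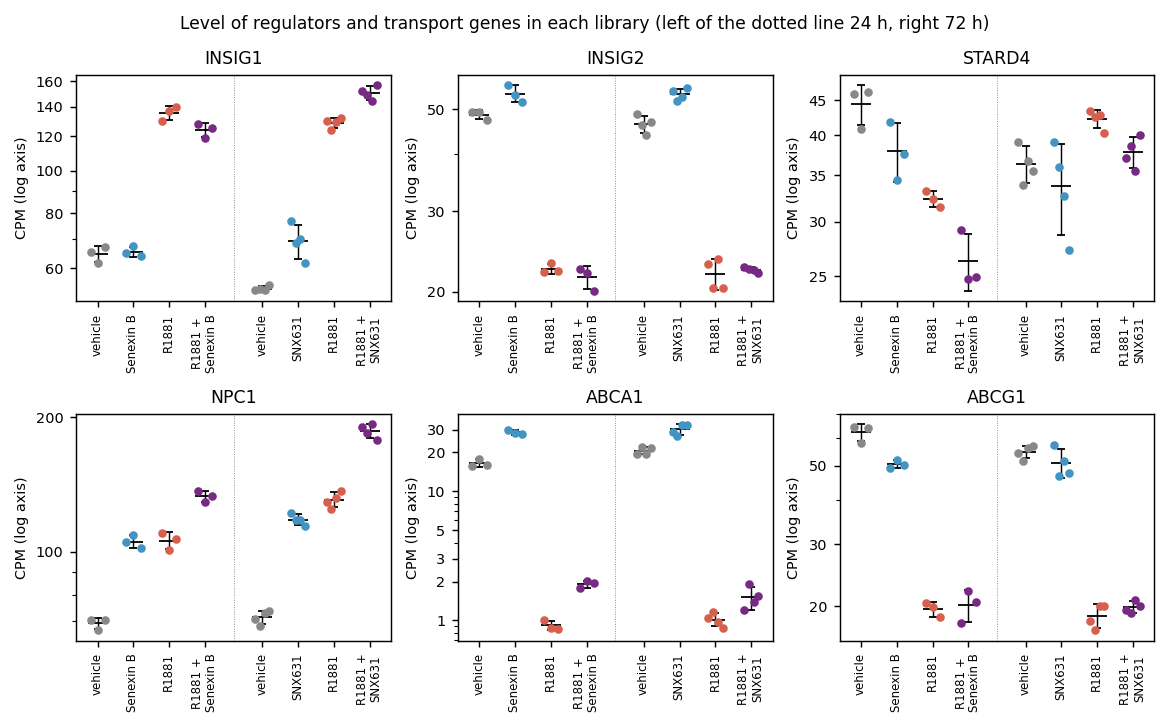
The level of 6 genes of sterol sensing, transport and export is plotted in CPM on a log axis for each library, with the 24 h groups left of the dotted line and the 72 h groups right of it, and bars give the mean and SD. INSIG1 rose and INSIG2 fell with R1881, ABCA1 fell to between 0.864 and 1.16 CPM with R1881 alone, NPC1 was highest with R1881 plus inhibitor, and STARD4 lay below vehicle with R1881 at 24 h and above it at 72 h.

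Sequences before the start site were read for genes that moved together or apart in these data. Of the 30 genes, 26 had a window of 250 bases before the start in the RefSeq promoter table for GRCh38.p14, and ACAT2, FDFT1, SQLE and ABCG1 had none. Shown are 3 genes that were higher with R1881 (HMGCS1, MVK, INSIG1), INSIG2 as the lower partner of INSIG1, and SREBF2, each as the longest stretch of the window outside the exons of that gene, with 30 bases around a match in ABCA1, which fall inside an annotated exon of ABCA1 in GENCODE 29. Capitals mark CCAAT (or ATTGG, its reverse complement), the box bound by NF-Y, and TCACNCCA, a short form of the sterol regulatory element. In ABCA1 they mark TGACC and TAACC with 5 bases between them, a direct repeat of the kind that LXR partnered with RXR binds. The stretches lie at chr5:43313513-43313662 on the minus strand for HMGCS1, at chr12:109573572-109573792 on the plus strand for MVK, at chr7:155297628-155297775 (plus) for INSIG1, at chr2:118088221-118088451 (plus) for INSIG2, at chr22:41832855-41833078 (plus) for SREBF2, and at chr9:104928202-104928231 (minus) for ABCA1.
HMGCS1: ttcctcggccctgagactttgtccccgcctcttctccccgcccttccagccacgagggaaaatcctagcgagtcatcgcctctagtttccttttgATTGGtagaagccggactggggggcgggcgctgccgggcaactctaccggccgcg
MVK: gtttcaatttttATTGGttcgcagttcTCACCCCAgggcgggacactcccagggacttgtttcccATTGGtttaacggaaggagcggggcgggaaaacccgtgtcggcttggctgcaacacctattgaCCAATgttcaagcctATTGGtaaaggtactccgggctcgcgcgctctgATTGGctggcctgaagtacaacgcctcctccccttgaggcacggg
INSIG1: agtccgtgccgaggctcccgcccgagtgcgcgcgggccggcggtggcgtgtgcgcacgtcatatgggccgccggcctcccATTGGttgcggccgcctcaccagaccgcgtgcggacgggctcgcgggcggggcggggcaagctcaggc
INSIG2: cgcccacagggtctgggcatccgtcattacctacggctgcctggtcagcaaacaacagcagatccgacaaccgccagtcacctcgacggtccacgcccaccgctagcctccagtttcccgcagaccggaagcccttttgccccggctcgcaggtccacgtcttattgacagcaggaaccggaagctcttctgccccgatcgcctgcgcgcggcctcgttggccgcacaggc
SREBF2: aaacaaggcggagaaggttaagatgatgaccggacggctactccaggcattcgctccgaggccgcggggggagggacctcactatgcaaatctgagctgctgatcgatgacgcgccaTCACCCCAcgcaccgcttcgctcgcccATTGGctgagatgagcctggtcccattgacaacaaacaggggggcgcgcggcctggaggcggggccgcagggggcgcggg
ABCA1: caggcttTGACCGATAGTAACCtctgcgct

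MVK held 5 CCAAT boxes and 1 TCACNCCA in its stretch, SREBF2 held 1 of each, and INSIG1 and HMGCS1 held 1 CCAAT in theirs. INSIG2 held neither. Over the 26 windows, searched on both strands, CCAAT was present in 17, against 33.0% of 27305 windows of the same length. It was present in 7 of 9 genes called higher in both experiments, in 1 of 3 called lower and in 9 of 14 others. TCACNCCA was present in MVK, MSMO1 and SREBF2, against 3.18% of all windows. Its last bases can overlap the start of a CCAAT. The direct repeat was present in ABCA1 and in no other gene of the 26, against 0.0623% of all windows, and this motif was chosen after the ABCA1 sequence had been read. The GC box GGGCGG was present in 24 genes (42.3% of all windows), the E-box CACGTG in SC5D, INSIG1, SCAP and ABCA1 (6.49%), and AGAACA, a half-site of the androgen response element, in PMVK (12.4%). A match is a description of letters and not a site of binding.

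The next comparison asked whether R1881 changed the same genes when an inhibitor was present. At 24 h with Senexin B, 9 genes were called higher and 4 lower, beside 18.9% of all genes (9.97% higher and 8.9% lower), and 28 of 30 did not overlap, beside 62.3%. At 72 h with SNX631, 17 were called higher and 4 lower, beside 22% of all genes (10.1% higher and 12% lower), and 27 of 30 did not overlap, beside 57.8%. The count at 72 h was 12 in place of 21 when library totals alone set the scale. The medians were 0.46 and 0.62 on the log2 scale, against -0.011 and -0.014 over all genes. The comparisons with and without inhibitor share no library. At 24 h, 13 genes were called in the same direction with and without inhibitor, and FDPS, SQLE, SREBF2 and NPC1 were called without it alone. At 72 h, 17 were called both ways, NSDHL without inhibitor alone, and CYP51A1, MSMO1, DHCR7 and SREBF2 with inhibitor alone. The shares of all genes called both with and without inhibitor were not computed. Over the 4 comparisons of R1881, 20 genes passed the FDR limit as higher in every one and TM7SF2, INSIG2, ABCA1 and ABCG1 as lower in every one. In single comparisons and in either direction, that limit alone was passed by 48.4% and 47.5% of all genes at 24 h without and with inhibitor, and by 52.2% and 57.3% at 72 h. The share of all genes that passed it in the same direction in all 4 was not computed.

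The leading genes were called with inhibitor as well. EBP had log2 fold changes of 1.18 ± 0.063 and 1.17 ± 0.060, INSIG1 of 0.92 ± 0.045 and 1.12 ± 0.041, and HMGCS1 of 0.93 ± 0.037 and 1.07 ± 0.029 (edgeR FDR from 1.23e-28 to 2.6e-17). INSIG2 changed by -1.33 ± 0.063 and -1.27 ± 0.051, and TM7SF2 by -0.94 ± 0.038 and -0.90 ± 0.031 (edgeR FDR from 4.95e-25 to 8.09e-19). ABCA1 was 14.9-fold and 19.7-fold lower with R1881, and ABCG1 2.51-fold and 2.55-fold lower (edgeR FDR from 5.2e-29 to 2.06e-17). CYP51A1, MSMO1 and DHCR7 reached 0.69, 0.71 and 0.64 at 72 h with SNX631 (edgeR FDR from 5.59e-20 to 1.99e-16). NPC1 changed by 0.34 ± 0.041 at 24 h, under the fold limit, and by 0.66 ± 0.032 at 72 h, where it was called (edgeR FDR 1.61e-08 and 2.31e-20).

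Whether the inhibitor changed the R1881 effect was tested by the interaction, and 0 of the 30 genes were called in either experiment, beside 0.577% of all genes at 24 h and 1.19% at 72 h. At an unadjusted p under 0.05, edgeR gave 12 genes at 24 h and 13 at 72 h, and the Wald test of DESeq2 with the same limits called 0 in both. The share of all genes under that unadjusted p was not computed. NPC1 was the 1 gene past the FDR limit, at -0.27 ± 0.059 and -0.21 ± 0.049 on the log2 scale (edgeR FDR 0.00406 and 0.00263), under the fold limit. The log2 fold change of NPC1 with R1881 was thus lower with inhibitor than without it in both experiments. SQLE had the next lowest FDR at 24 h, at -0.26 ± 0.066 (edgeR FDR 0.0188), and MYLIP at 72 h, at 0.39 ± 0.11 (edgeR FDR 0.0142). For ABCA1 the interaction was 0.26 ± 0.29 and 0.033 ± 0.27 (edgeR FDR 0.757 and 0.959), an SE wide enough that a moderate difference could not have been detected at these counts.

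The last comparison asked what the inhibitors did to these genes. NPC1 and ABCA1 were called higher in some of the comparisons, and the synthesis enzymes moved by less than the fold limit in both directions. Senexin B alone raised 2 of the 30 genes, NPC1 and ABCA1, beside 3.79% of all genes called (2.02% higher), and 15 genes did not overlap, beside 45.8%. With R1881 present it raised 1, ABCA1, beside 3.12% (1.61% higher), and 16 genes did not overlap, beside 42.1%. SNX631 alone raised 1, NPC1, beside 4.77% (2.82% higher), and 14 genes did not overlap, beside 33%. With R1881 present SNX631 called 0 of the 30 by edgeR, beside 4.12% (1.89% higher), and 20 did not overlap, beside 37.7%. In that last comparison 21 genes had an unadjusted p under 0.05, 13 of them higher and 8 lower, and DESeq2 also called 0. No share of all genes was computed for the unadjusted p. In the order given, 6.67%, 3.33%, 3.33% and 0% of the 30 genes were called, so under both limits they were called at about the share of all genes. By the FDR limit alone their share was above that of all genes, with the counts given below. The medians of the 30 genes lay between -0.019 and 0.079 on the log2 scale in the 4 comparisons.

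**Figure D4:**
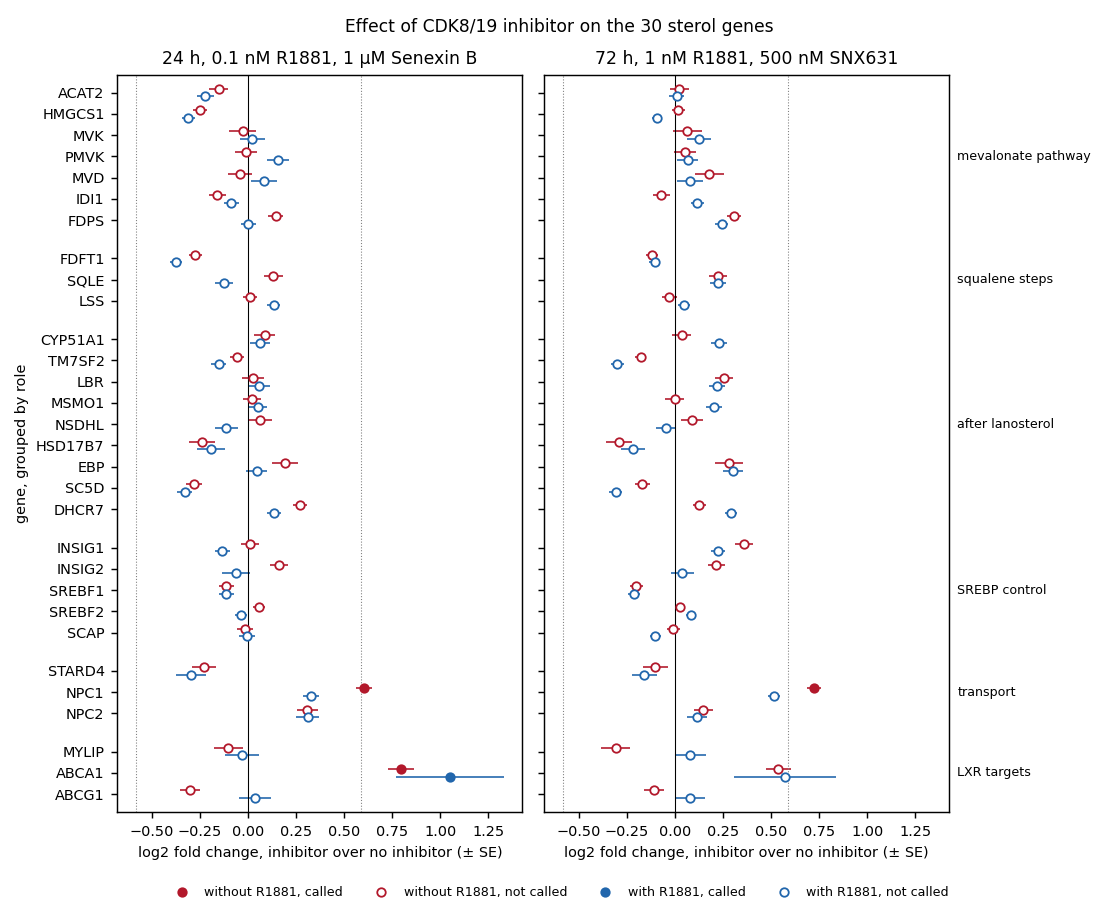
The log2 fold change of inhibitor over the matched group without inhibitor is plotted for the 30 genes, with its SE, for Senexin B at 24 h on the left and SNX631 at 72 h on the right. Red points are cells without R1881 and blue points cells with R1881, filled points were called and dotted lines mark a fold change of 1.5 in either direction. NPC1 and ABCA1 lie furthest to the right in both panels, and most synthesis enzymes lie between the dotted lines close to 0.

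NPC1 rose from the vehicle values given above to 105, 109 and 102 CPM with Senexin B at 24 h and to 122, 118, 118 and 114 CPM with SNX631 at 72 h. With R1881 plus inhibitor it held 137, 129 and 133 CPM at 24 h and 190, 184, 193 and 178 CPM at 72 h. The order of its group means was the same in both experiments, with vehicle lowest, at 69.3 and 71.5 CPM, then inhibitor at 105 and 118, R1881 at 106 and 131, and both together at 133 and 186 CPM. Inhibitor and R1881 libraries overlapped at 24 h and did not at 72 h. Without R1881 its log2 fold changes were 0.60 ± 0.042 and 0.72 ± 0.037 (edgeR FDR 7.44e-13 and 1.91e-18), and the first lost its call without replicate 2 of the vehicle group, at 0.585. With R1881 they were 0.33 ± 0.042 and 0.51 ± 0.032, under the fold limit (edgeR FDR 2.37e-07 and 5.51e-16). RMC1 overlaps an exon of NPC1 on the opposite strand.

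ABCA1 averaged 16.5 ± 1.09 CPM with vehicle and 28.6 ± 1.05 CPM after Senexin B (SD, n = 3), from libraries of at most 17.8 CPM to libraries of 29.7, 28.2 and 27.7 CPM. With SNX631 it went from 20.7 ± 1.36 to 30.2 ± 2.93 CPM (SD, n = 4), the SNX631 libraries holding 28.9, 26.7, 32.4 and 32.8 CPM. These groups did not overlap, and the log2 fold changes were 0.80 ± 0.068, which was called, and 0.54 ± 0.067, under the fold limit (edgeR FDR 6.3e-11 and 2.54e-08). In the presence of R1881 it measured 1.78, 2.01 and 1.95 CPM with Senexin B and 1.2, 1.93, 1.38 and 1.54 CPM with SNX631, above the R1881 libraries without inhibitor but far below every library without R1881. The changes were 1.05 ± 0.28 and 0.57 ± 0.265 (edgeR FDR 0.00273 and 0.0729). The call at 24 h was lost without any 1 of replicates 2 and 3 of either R1881 group, at FDR 0.0103 to 0.0161.

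A few enzymes passed the FDR limit in the same direction in all 4 comparisons, at sizes under the fold limit. Of all genes, 25.1% and 22.7% passed that limit in either direction for Senexin B without and with R1881, and 26.9% and 33.1% for SNX631. Of the 30 genes, 6 passed it as higher and 7 as lower for Senexin B without R1881, and 5 and 6 with R1881. For SNX631, 9 passed as higher and 6 as lower without R1881, and 11 and 7 with R1881. In each comparison this was a larger share than that of all genes. These shares are of single comparisons, and the share of all genes over all 4 in the same direction was not computed. DHCR7 was higher past the FDR limit in each, by 0.13 to 0.29 on the log2 scale, and FDFT1 and SC5D were lower in each, by values from -0.38 to -0.11 and from -0.33 to -0.17 (edgeR FDR up to 0.00384). FDFT1 held 158 ± 1.83 CPM with Senexin B against 191 ± 2.05 with vehicle at 24 h (SD, n = 3), and 175 ± 6.38 with SNX631 against 190 ± 4.95 with vehicle at 72 h (SD, n = 4). HMGCS1 was lower with Senexin B, at -0.25 ± 0.037 without and -0.31 ± 0.034 with R1881 (edgeR FDR 2.83e-06 and 1.24e-08), and had values of 0.017 ± 0.032 and -0.092 ± 0.026 with SNX631 (edgeR FDR 0.716 and 0.00411). Without R1881, the Senexin B value of INSIG1 was 0.0077 ± 0.046 and its SNX631 value 0.36 ± 0.048 (edgeR FDR 0.919 and 9.99e-08). INSIG2 had values of 0.16 ± 0.048 and 0.21 ± 0.044 without R1881 (edgeR FDR 0.00956 and 0.000173). None of these reached the fold limit of 1.5. Doses, times and experiments differed between Senexin B and SNX631, so their values stand side by side without a comparison of the compounds.

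Further genes of sterol and fatty acid metabolism were counted in the same way. Of 34 further genes of sterol feedback, isoprenoid branches, the LXR and RXR receptors, oxysterol synthesis and cholesterol transport or storage, 30 were tested, of which 4 were higher and 1 was lower by the call with R1881 in each experiment, with medians of 0.084 and 0.11 on the log2 scale. That is 16.7% of them, beside 19% and 19.8% of all genes at 24 h and 72 h, so these genes were called at about the share of all genes. SOAT1, which esterifies cholesterol for storage, rose by 1.38 ± 0.048 and 1.26 ± 0.045, and VLDLR, a lipoprotein receptor, by 0.97 ± 0.065 and 1.35 ± 0.060 (edgeR FDR from 6.32e-25 to 2.18e-14). TMEM97, which binds NPC1, rose by 1.18 ± 0.046 and 0.66 ± 0.037, and GRAMD1C, a sterol transfer protein, changed by -0.97 ± 0.10 and -1.28 ± 0.10 (edgeR FDR from 1.03e-20 to 2.14e-10). The receptor genes NR1H2 and NR1H3 (LXR) and RXRA and RXRB had log2 fold changes between -0.35 and 0.086 with R1881 in cells without inhibitor, all inside the fold limit.

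A further list held 10 genes of fatty acid metabolism, taken as SREBP targets, and their control by SREBP was not tested here. With R1881, 4 were called higher at 24 h and 5 at 72 h, beside 9.81% and 9.7% of all genes, with medians of 0.45 and 0.52. The other 6 and 5 were not called, among them ELOVL6 and ACSS2, with 24 h values of 0.0035 and -0.066. ACSL3, which activates fatty acids, rose by 2.03 ± 0.035 and 2.56 ± 0.026, ACACA, acetyl-CoA carboxylase, by 0.99 ± 0.036 and 1.02 ± 0.035, and the desaturase gene FADS1 by 0.70 ± 0.046 and 0.78 ± 0.039 (edgeR FDR from 8.81e-43 to 9.98e-15). FADS2, another desaturase gene of the list, rose by 0.60 ± 0.038 and 0.73 ± 0.023 (edgeR FDR 6.35e-15 and 1.75e-26).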

How the data were processed

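RNA of 28 LNCaP libraries in 8 groups was sequenced from a directional kit. The authors deposited expected counts per gene, not scaled to depth, in which reads shared by several genes count as fractions (16.9% of the values above 0 had one). The submitters' processing notes name FastQC, cutadapt 2.8, STAR 2.7.2b, featureCounts, Subread 2.0.3 and the builds GRCh38.p13 and GRCm39. The annotation release and the use of strand in counting are not given in the sources used here. Fractions made up at most 0.112% of the counts of any of the 30 genes, and 2 added entries at 0 counts were left out.

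Counts were rounded. The 4 groups of each experiment went into a separate fit by edgeR 4.0.16 in R 4.3.3, with TMM scaling and the quasi-likelihood test. Genes were kept by filterByExpr (minimum count 10, minimum total 15), with FDR over all genes tested and calls at FDR under 0.01 and fold over 1.5, the limits of the study. SE are Wald errors of the same fit. CPM are scaled by TMM. Contrasts were R1881 without and with inhibitor, inhibitor without and with R1881, and their interaction. Differences between experiments came from a fit of all 28 libraries. Every replicate pair differed beyond sampling noise by a chi-square test, and each library was counted as 1. Repeat libraries of 1 culture could also differ in this way, so the test does not show that the cultures were separate.

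The 30 genes, the further lists and the alternatives were chosen with earlier results of these data known. Genes named with every library are those called for R1881 without inhibitor in the same direction in both experiments or called for an inhibitor contrast or interaction, other genes of the 30 are given by means and fold changes, and at most 4 genes are named per further list, by effect among those called. STARD4 and the values of inhibitor contrasts under the fold limit were singled out after their values were seen. Alternatives were scaling by DESeq2 size factors or by library totals, thinning to the smallest total, DESeq2 1.42.0, other filters and limits, a test against a fold of 1.5, a replicate block, all libraries in 1 fit and leaving out each library. Of the 30 genes, 16 share no exon with another gene in GENCODE 29 on GRCh38, 3 share one on the same strand and 13 on the opposite strand. Promoter sequences are those of RefSeq for GRCh38.p14. Steps were tested on simulated data. Figures were drawn with matplotlib 3.10.9.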

Additional observations from a re-analysis of the deposited data

Results flagged for a closer look

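STARD4 was the 1 gene of the 30 called, by the FDR and fold limits, for a difference in R1881 effect between the experiments. The difference was 0.69 on the log2 scale without inhibitor and 0.707 with inhibitor (edgeR FDR 1.63e-06 and 2.88e-06). By the FDR limit alone, 3 of the 30 genes passed without inhibitor and 6 with it, all with a higher value at 72 h. The shares of all genes at that limit alone are not given here. Time, R1881 dose and inhibitor changed together between the experiments and cannot be told apart.

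In the 72 h groups, 1 library stood apart from the other 3 by Dixon's test in 5 of 120 groups, where chance gives about 1 in 20, or 6. These were ACAT2 in R1881 replicate 1 (90.8 CPM), SQLE in the same library (82.3 CPM), LBR in vehicle replicate 4 (49.6 CPM) and in SNX631 replicate 4 (57.2 CPM), and LSS in R1881 plus SNX631 replicate 3 (133 CPM).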

How the results depend on the processing

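Of 173 values of single genes followed through the alternatives, 4 changed sign somewhere and 0 of the 75 called values did, while 21 of the 75 lost the call somewhere. Scaled by library totals alone, the R1881 effect without inhibitor turned to -0.0331 at 24 h and -0.0252 at 72 h for HSD17B7, to -0.0619 at 24 h for SREBF1 and to -0.0362 at 72 h for NPC2, and leaving out 1 library gave SREBF1 at 24 h values from -0.014, without replicate 2 of the vehicle group, to 0.0508. That scaling moved the median of all genes for R1881 at 72 h to -0.116 without and -0.122 with SNX631, and gave 1356 higher and 1811 lower calls over all genes at 24 h and 1299 and 2121 at 72 h, against 1565 and 1465 and 1559 and 1626. It left 1 of the 30 genes called for Senexin B alone and 12 for R1881 with SNX631. Testing against a fold of 1.5 left 0 for Senexin B without and with R1881 and 13 for R1881 with SNX631. An FDR under 0.05 with no fold limit gave 27 genes for R1881 at 24 h without and 27 with Senexin B, 28 for R1881 at 72 h, 17 and 16 for Senexin B without and with R1881, 16 and 19 for SNX631, and 3 and 6 for the interaction at 24 h and 72 h, which follows from the absent fold limit. The shares of all genes at that looser limit are not given here. Leaving out 1 library gave 17 to 18 and 13 to 14 genes for R1881 at 24 h without and with Senexin B, 16 to 18 and 20 to 21 at 72 h, 1 to 2 and 0 to 1 for Senexin B, 1 to 2 and 0 to 0 for SNX631, 0 to 0 for both interactions, and 1 to 1 for the differences between experiments. SNX631 alone gave 2 genes without its replicate 2, ABCA1 being the added one at 0.596. MVK and NSDHL at 72 h lost the call in 17 and 7 of 26 alternatives. Other causes were not tested. Libraries with the same replicate number were at most weakly correlated in their deviations from the group means (from -0.0677 to 0.073). At 24 h, 7 of 12 libraries were closest to their own number, and at 72 h 2 of 16, so this check does not exclude a pairing at 24 h. A replicate block changed no count, for example 17 and 18 genes for R1881 without inhibitor and 13 and 21 with it. ABCA1 in the R1881 libraries, at 10 to 14 counts, is where depth limits precision most.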
